A study of Mus musculus with 6 samples.

Results

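The genes described here are Bcat1 and 8 others of branched-chain amino acid breakdown (Bcat2, Bckdha, Bckdhb, Dbt, Bckdk, Ivd, Mccc1 and Mccc2). They were taken by gene symbol: every probe set with deposited values that the platform annotation gives to 1 of these symbols alone was kept. This gave 15 probe sets of 28225 tested, and 9 genes of 12364 named. Bcat1 was chosen because its signal differed between the treatments in these same arrays, so its difference and those of the other genes in the same comparison are given as a description. Counts of probe sets that passed the thresholds of the fit are printed beside the share over all probe sets, and nothing is read from them.

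Leucine, isoleucine and valine are the branched-chain amino acids. Their breakdown opens with a reversible transamination by a cytosolic enzyme, Bcat1, or a mitochondrial one, Bcat2, which passes the amino group to 2-oxoglutarate and yields glutamate and a branched-chain keto acid. The branched-chain keto acid dehydrogenase (BCKDH) complex of the mitochondrion then removes the carboxyl group irreversibly, and a kinase, Bckdk, switches the complex off by phosphorylation. After that step each amino acid has its own route. In the leucine route, isovaleryl-CoA dehydrogenase and the biotin-dependent methylcrotonyl-CoA carboxylase act next. Bcat1 is expressed in few adult tissues, whereas Bcat2 is the widespread form.

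The cells were mpkCCD clone 11, a line from mouse kidney cortical collecting duct that is 1 clone, grown as a polarized layer on a membrane support. Once the electrical resistance was at least 5 kohm per cm2, cells received vehicle or 0.1 nM dDAVP for 5 days. dDAVP (desmopressin) is an analog of vasopressin selective for its V2 receptor. Total RNA of each treatment was hybridised to 3 Affymetrix Mouse Genome 430 2.0 arrays, called biological replicates in the labels. Separate passages or days are not stated, so the fit measures the spread between these 6 samples. Values are the deposited log2 signals, so a difference of 1 is a doubling. Levels are compared within a probe set, except against a background level and to name a gene's brightest probe set.

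The medians of the 6 arrays spanned 0.043 log2 units. Aqp2, the water channel that vasopressin regulates, was 17.8-fold higher in dDAVP arrays and served as a check of the treatment (limma with Benjamini-Hochberg adjustment, adjusted p = 1.66e-07). Of 12 markers of principal cells, the water- and sodium-transporting cells of the collecting duct, 11 had a deposited single-gene probe set and counted as measured. Of these, 0 lay at or below 3.56, a background level set at the 95th percentile of 10 deposited probe sets of olfactory receptors. Of 42 markers of other cell types 14 were measured in this sense, and 5 of them (Aqp1, Slc12a1, Col3a1, Cdh5 and Ptprc) lay at or below that level. The markers without deposited values cannot be judged. The array means of the 2 measured intercalated cell markers were 6.48 to 6.59 with vehicle and 6.73 to 7.01 with dDAVP. Those of the 2 measured leukocyte markers were 4.19 to 4.38 and 4.46 to 4.51. Those of the 5 measured proximal tubule markers were 5.17 to 5.25 and 5.20 to 5.29. The part of other cell types in the values below was not tested. In bulk RNA, a change in the number of cells of a type and a change in RNA per cell cannot be told apart.

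Because Bcat1 was the member whose signal differed, the DNA before its start sites is shown. RefSeq (GRCm38.p6) lists 2 starts in the table used here, both on chromosome 6. The 250 bases before each are printed 5′ to 3′ with CpG dinucleotides in capitals.
Bcat1 distal start (chr6:145076158-145076407, minus strand): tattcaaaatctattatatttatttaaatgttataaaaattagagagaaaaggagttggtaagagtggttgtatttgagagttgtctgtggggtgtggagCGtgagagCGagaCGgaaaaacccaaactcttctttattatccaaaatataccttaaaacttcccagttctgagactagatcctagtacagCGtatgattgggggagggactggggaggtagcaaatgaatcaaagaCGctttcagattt
Bcat1 proximal start (chr6:145048813-145049062, minus strand): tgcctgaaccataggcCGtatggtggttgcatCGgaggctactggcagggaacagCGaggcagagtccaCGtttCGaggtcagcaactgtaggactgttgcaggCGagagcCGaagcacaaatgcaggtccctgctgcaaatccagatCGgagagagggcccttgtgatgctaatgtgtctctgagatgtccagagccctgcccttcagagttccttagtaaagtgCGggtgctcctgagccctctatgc
The sequence before the distal start had 5 CpG dinucleotides and a GC content of 37.6%, and that before the proximal start had 9 and 56.4%, against medians of 6 and 52.4% over all 32817 such windows in the table. Both Bcat1 windows, and those of 7 other members, were searched on both strands for 4 motifs. These were the cAMP response element TGACGTCA, its shorter form TGACG (which the full element contains), the E-box CACGTG bound by Myc, and the amino acid response core TGATGNAA. Among all windows, 1.55%, 17.7%, 6.02% and 3.45% held these motifs respectively. Neither Bcat1 window held any of them, which says only that these letters are not in these bases. Of the 11 windows of the 8 members, 1 held a match, an E-box that begins 9 bases before the Mccc2 start. Dbt had no entry.

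Bcat1, the cytosolic aminotransferase, had a higher signal with dDAVP on each of its 3 probe sets, by 1.41-fold to 1.62-fold. On the brightest, 1450871_a_at, the vehicle arrays 1 to 3 measured 7.64, 7.76 and 7.87, and the dDAVP arrays measured 8.46, 8.42 and 8.50. Every dDAVP array was above every vehicle array, and the gap between the lowest dDAVP and the highest vehicle value was 0.54. The group means were 7.76 ± 0.11 and 8.46 ± 0.04 (SD, n = 3), a difference of 0.70 ± 0.073 (SE of the moderated fit, 95% interval 0.53 to 0.87), or 1.62-fold (1.44 to 1.82). On 1455699_at the vehicle arrays measured 7.09, 7.14 and 6.86 and the dDAVP arrays 7.57, 7.58 and 7.50. The groups again did not overlap, and the difference was 0.52 ± 0.084 (SE), or 1.43-fold. On 1430111_a_at the values were 6.65, 6.66 and 6.78 with vehicle and 7.26, 7.13 and 7.19 with dDAVP. These groups did not overlap either, and the difference was 0.50 ± 0.067 (SE), or 1.41-fold. The 95% intervals of the 3 probe sets overlapped each other.

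**Figure D1:**
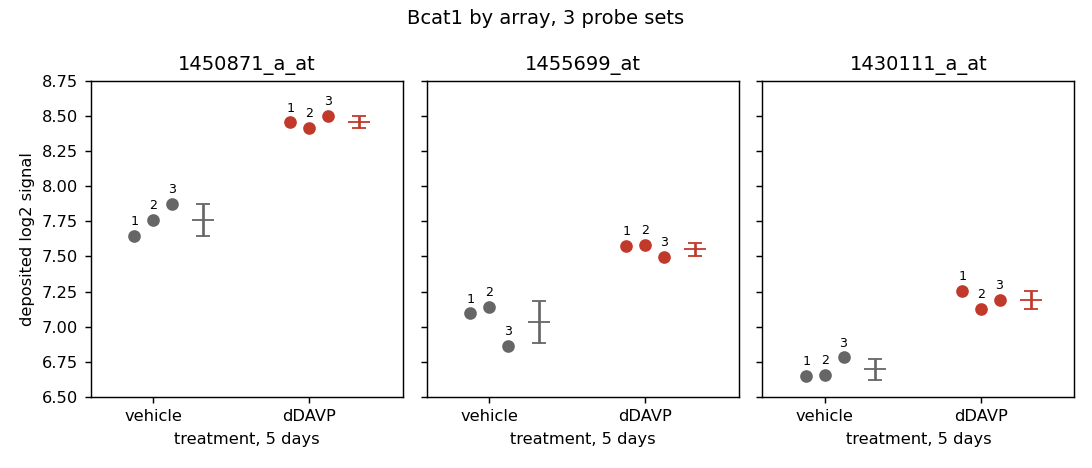
Deposited log2 signal of Bcat1 (vertical axis) on each of its 3 probe sets, by treatment (horizontal axis). Numbered points are arrays by replicate number, and the bars give the mean and SD of 3 arrays. On each probe set the 3 dDAVP arrays lie above the 3 vehicle arrays, by 0.35 to 0.54 at the closest.

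By the log2 change of the brightest probe set, Bcat1 ranked 22nd among 12364 genes. Of its 3 probe sets 2 (1450871_a_at and 1430111_a_at) were called in limma at 0.05 after Benjamini-Hochberg adjustment, as were 2 of the 15 probe sets of all 9 genes, both higher. Over all probe sets 0.216% were called in either direction and 0.188% higher. As Bcat1 was picked from this comparison, these counts are a description. The groups did not overlap for 5 of the 15 probe sets, all higher with dDAVP, where 13.4% of all probe sets did not overlap and 8.07% did so in that direction. Besides the 3 of Bcat1, these were the Bckdhb probe set and the brighter Mccc1 probe set. The 2 calls among the 15 probe sets became 0 or 1 when 1 array was left out. The count over all probe sets fell from 61 to between 22 and 46 in the same fits. The brightest Bcat1 probe set was called in 1 of 6 fits that left out an array (that without vehicle replicate 3) and 1430111_a_at in 0 of 6, with differences of 0.64 to 0.75 and 0.46 to 0.54.

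**Figure D2:**
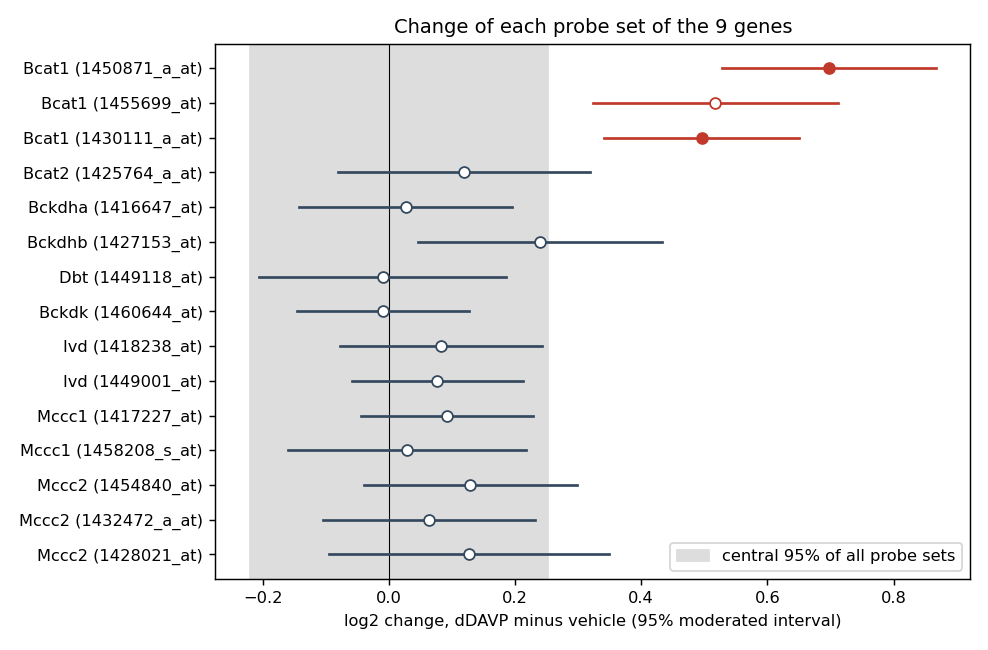
Log2 change with dDAVP (horizontal axis) of the 15 probe sets of the 9 genes, with 95% intervals of the moderated fit. Filled points passed the adjusted threshold, and the grey band holds the central 95% of all 28225 probe sets. The 3 Bcat1 points lie to the right of the band and the 12 others lie inside it.

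Bcat2, the mitochondrial aminotransferase that carries out the same reaction, had 1 probe set. Its vehicle arrays measured 5.35, 5.17 and 5.45 and its dDAVP arrays 5.51, 5.48 and 5.35. The groups overlapped, and the difference was 0.12 ± 0.086 (SE, 95% interval -0.08 to 0.32), whose upper bound is a 1.25-fold higher signal. Without vehicle replicate 2, the lowest array, the difference was 0.04.

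The BCKDH complex was represented by both chains of its decarboxylase and by its core transacylase. Bckdha, the alpha chain that Bckdk phosphorylates, measured 7.68, 7.80 and 7.65 with vehicle and 7.69, 7.84 and 7.68 with dDAVP. The groups overlapped, at a difference of 0.03 ± 0.073 (SE). Bckdhb, the beta chain, measured 6.44, 6.31 and 6.39 with vehicle and 6.49, 6.77 and 6.59 with dDAVP. Every dDAVP array was above every vehicle array here, dDAVP replicate 1 by the least. The difference of 0.24 ± 0.084 (SE, 95% interval 0.05 to 0.43), or 1.18-fold, was not called over all probe sets. It was the largest difference among the 8 genes besides Bcat1 and lay inside the range of -0.22 to 0.25 that holds the central 95% of all probe sets.

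Dbt, the transacylase that forms the core of the complex, measured 7.50, 7.45 and 7.43 with vehicle and 7.63, 7.39 and 7.33 with dDAVP. The dDAVP arrays spread to both sides of the vehicle arrays, and the difference was -0.01 ± 0.085 (SE). Bckdk, the kinase that inactivates the complex, measured 8.31, 8.38 and 8.32 with vehicle and 8.27, 8.36 and 8.35 with dDAVP. Its difference was -0.01 ± 0.059 (SE), and its 95% interval of -0.15 to 0.13 was the narrowest of the single-probe-set members.

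Of the leucine route, Ivd, isovaleryl-CoA dehydrogenase, had 2 probe sets. The brighter measured 8.25, 8.36 and 8.44 with vehicle and 8.39, 8.49 and 8.42 with dDAVP, a difference of 0.08 ± 0.069 (SE). The dimmer differed by 0.08 ± 0.058 (SE), and the groups overlapped on both.

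Mccc1, the biotin-carrying alpha subunit of methylcrotonyl-CoA carboxylase, measured 8.10, 8.20 and 8.17 with vehicle and 8.22, 8.25 and 8.29 with dDAVP on its brighter probe set. These groups did not overlap, but the difference of 0.09 ± 0.059 (SE) had a 95% interval of -0.04 to 0.23. Its dimmer probe set, 1458208_s_at, bears a suffix that Affymetrix gives to probe sets that may match more than 1 transcript. It differed by 0.03 ± 0.082 (SE), and there the groups overlapped. Mccc2, the beta subunit, had 3 probe sets with differences of 0.13 ± 0.073, 0.06 ± 0.073 and 0.13 ± 0.096 (SE). The second of these was 0.01 without dDAVP replicate 1, and the third 0.02 without vehicle replicate 2. On its brightest the values were 7.36, 7.46 and 7.45 with vehicle and 7.61, 7.61 and 7.43 with dDAVP. There dDAVP replicates 1 and 2 stood above all vehicle arrays while replicate 3 lay among them.

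**Figure D3:**
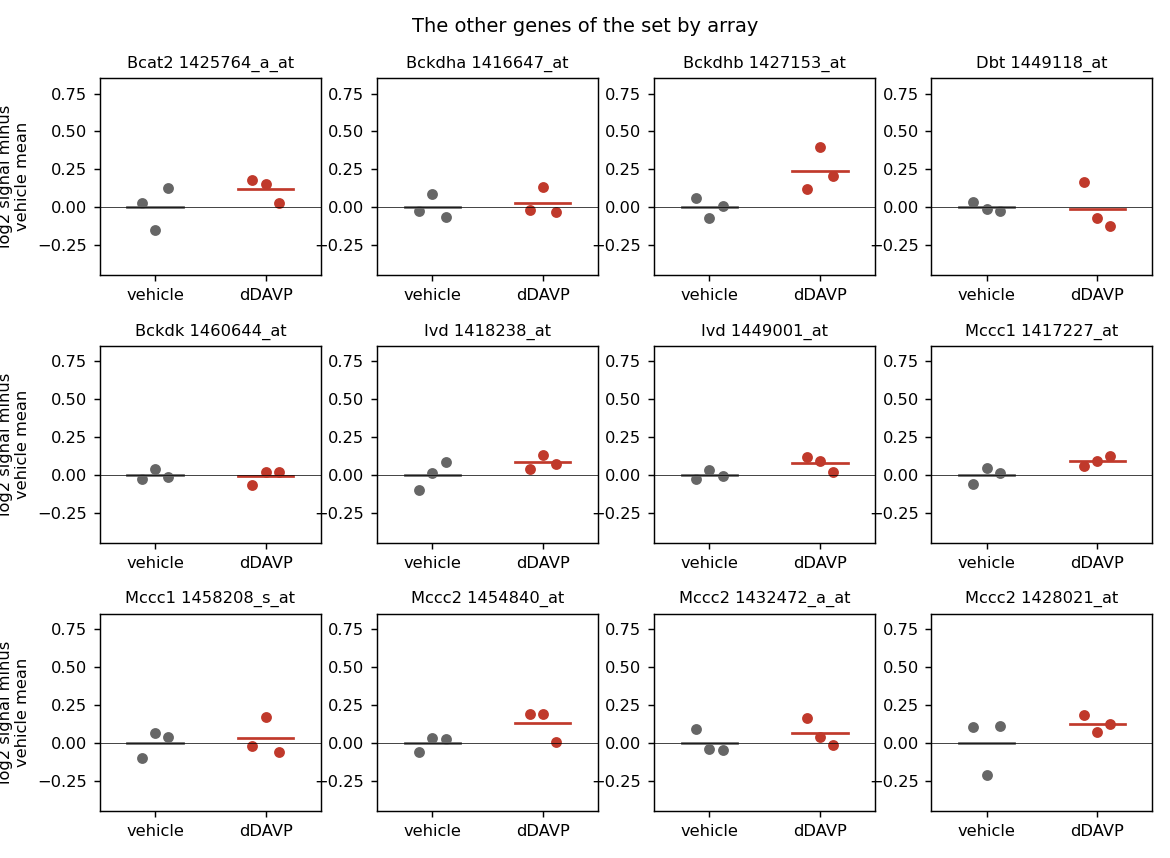
Log2 signal minus the vehicle mean (vertical axis) for the 12 probe sets of the 8 genes besides Bcat1, by treatment, with 1 point per array and a line at each group's mean. The groups overlap in 10 panels, and Bckdhb and the brighter Mccc1 probe set have all dDAVP arrays above all vehicle arrays.

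Across these 8 genes, 0 of 12 probe sets were called, and 1 (Bckdhb) had an unadjusted p below 0.05 in limma, where 7.98% of all probe sets did. The differences ran from -0.01 to 0.24 with a median of 0.08, against a median of 0.0039 for all probe sets. The 95% intervals of 11 of the 12 held 0, and the highest upper bound corresponded to 1.35-fold. All 12 lay inside the central 95% of all probe sets, whereas all 3 Bcat1 probe sets lay outside it. With arrays scaled to their hybridisation controls, which were 0.15 log2 units lower in dDAVP arrays, the median of all probe sets became 0.15 and the brightest Bcat1 probe set was at 0.85. That scaling adds the same amount to every probe set, Dbt and Bckdk included. No direction is given for Dbt (-0.01 ± 0.085, SE) or Bckdk (-0.01 ± 0.059), whose differences were smaller than their SEs. The same holds for Bckdha (0.03 ± 0.073), the dimmer Mccc1 probe set (0.03 ± 0.082) and Mccc2 probe set 1432472_a_at (0.06 ± 0.073).

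The other genes of the pathway were taken from 10 lists with 65 members, of which 54 were measured and 11 were not analysed here. By the brightest probe set of each gene, 0 of 54 were called higher and 0 lower in limma, where 0.291% of all genes were called. An unadjusted p below 0.05 was seen for 8 (6 higher and 2 lower), where 7.80% of all genes had one. The median difference over the 54 was 0.04, against 0.01 for all genes.

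Among the remaining BCKDH genes, 0 of 5 were called. The phosphatase Ppm1k, which reverses the action of Bckdk, was at -0.08 ± 0.071 (SE), and the lipoylation genes Lipt2 and Lipt1 were at -0.13 ± 0.12 and 0.09 ± 0.088. A dimmer Lipt1 probe set, with a mean of 3.41 that is below the background level, was at -0.28 ± 0.17. In the later leucine route 0 of 3 were called. The ketone body enzyme Acat1 was at 0.08 ± 0.059 (SE) on the brightest of its 3 probe sets and at -0.04 ± 0.065 and 0.04 ± 0.063 on the others. Oxct1, also of ketone use, was at 0.04 ± 0.066 on its brightest and at 0.12 ± 0.060, 0.04 ± 0.16 and 0.10 ± 0.14 on the others. The hydratase Auh was at 0.02 ± 0.056 on its brightest, and its others lay between -0.05 and 0.03. In the isoleucine route 0 of 6 were called. Acadsb, the dehydrogenase that acts on 2-methylbutyryl-CoA, measured 6.69, 6.61 and 6.68 with vehicle and 6.78, 6.84 and 6.94 with dDAVP. These groups did not overlap, and the difference of 0.19 ± 0.065 (SE) had an adjusted p of 0.479 in limma. Hsd17b10 and Acaa2 were at 0.10 ± 0.066 and 0.06 ± 0.069. In the valine route 0 of 4 were called, with Hibch at 0.11 ± 0.073, Hibadh at 0.03 ± 0.057 and Acad8 at 0.01 ± 0.067 (SE). Their dimmer probe sets were at -0.21 ± 0.16, 0.09 ± 0.059 and 0.14 ± 0.11. That of Hibch had a mean of 3.40, below the background level.

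The isoleucine and valine routes meet at propionyl-CoA, where 0 of 7 genes were called. Pcca, the biotin-carrying subunit of propionyl-CoA carboxylase, measured 7.89, 8.00 and 7.89 with vehicle and 8.12, 8.24 and 8.25 with dDAVP. Every dDAVP array was above every vehicle array, and the difference was 0.28 ± 0.066 (SE, limma adjusted p = 0.280). A second, much dimmer Pcca probe set was at -0.06 ± 0.081. Its partner subunit Pccb was at 0.05 ± 0.058, the epimerase Mcee at 0.17 ± 0.078 and the cobalamin gene Mmadhc at 0.06 ± 0.058. Of the biotin genes 0 of 3 were called, with the ligase Hlcs at 0.11 ± 0.083, the vitamin transporter Slc5a6 at 0.14 ± 0.11 and the recycling enzyme Btd at 0.02 ± 0.056.

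Of the carriers 0 of 7 were called. Slc3a2, the chain that the leucine transporters of its family need at the cell surface, measured 11.27, 11.26 and 11.21 with vehicle and 11.50, 11.52 and 11.52 with dDAVP. The groups did not overlap, and the difference was 0.26 ± 0.055 (SE, limma adjusted p = 0.201). Its partner Slc7a5, the leucine carrier itself, was at 0.10 ± 0.077 with an adjusted p of 0.825 in limma. Slc43a2 was at 0.18 ± 0.11 on its brightest probe set and at 0.04 ± 0.14 and -0.0047 ± 0.12 on the others. In 2 of 15 alternatives Slc3a2 was called in limma. These were the fit without dimmer probe sets, below the median level (adjusted p = 0.0484), and that with a trended prior (adjusted p = 0.0122). The count over all probe sets also rose there, from 61 in the main fit to 95 and 146. Over all alternatives the difference of Slc3a2 was 0.24 to 0.41.

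Of the enzymes that use or remake glutamate, 0 of 8 were called. Glul, glutamine synthetase, measured 6.75, 6.75 and 6.73 with vehicle and 6.69, 6.46 and 6.34 with dDAVP. All dDAVP arrays were below all vehicle arrays, though replicate 1 only just, and the difference was -0.24 ± 0.090 (SE, limma adjusted p = 0.546). Asns, asparagine synthetase, was at 0.15 ± 0.057 on its brighter and 0.03 ± 0.070 on its dimmer probe set, and Glud1, glutamate dehydrogenase, at 0.11 ± 0.056. Of the leucine sensors and mTORC1 genes 0 of 6 were called. Sesn2, which binds leucine, was at 0.13 ± 0.055 (limma adjusted p = 0.617) on its brighter and 0.27 ± 0.11 on its dimmer probe set. Sesn1 was at -0.14 ± 0.064 and Rptor at 0.10 ± 0.067. A dimmer Rptor probe set, with a mean of 3.50 that is below the background level, was at -0.18 ± 0.10.

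Of the transcriptional regulators 0 of 5 were called. Myc, described elsewhere as an activator of Bcat1, measured 9.41, 9.32 and 9.32 with vehicle and 9.71, 9.54 and 9.57 with dDAVP. The groups did not overlap, and the difference was 0.26 ± 0.069 (SE, limma adjusted p = 0.351). Of 15 alternatives, Myc passed in 1, the hybridisation scaling, at 0.41 (limma adjusted p = 0.0468). That scaling adds 0.15 to every difference and took the count over all probe sets from 61 to 282. Ppargc1a, a coactivator of mitochondrial genes, measured 7.39, 7.41 and 7.55 with vehicle and 7.09, 7.22 and 7.19 with dDAVP on the brightest of its 5 probe sets. All dDAVP arrays were lower there, by -0.28 ± 0.071 (SE, limma adjusted p = 0.308), and the other 4 probe sets lay between -0.37 and -0.19. Atf4, which drives the amino acid response, was at 0.07 ± 0.061 on the brightest of its 3 probe sets and at -0.08 ± 0.12 and 0.19 ± 0.098 on the others.

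**Figure D4:**
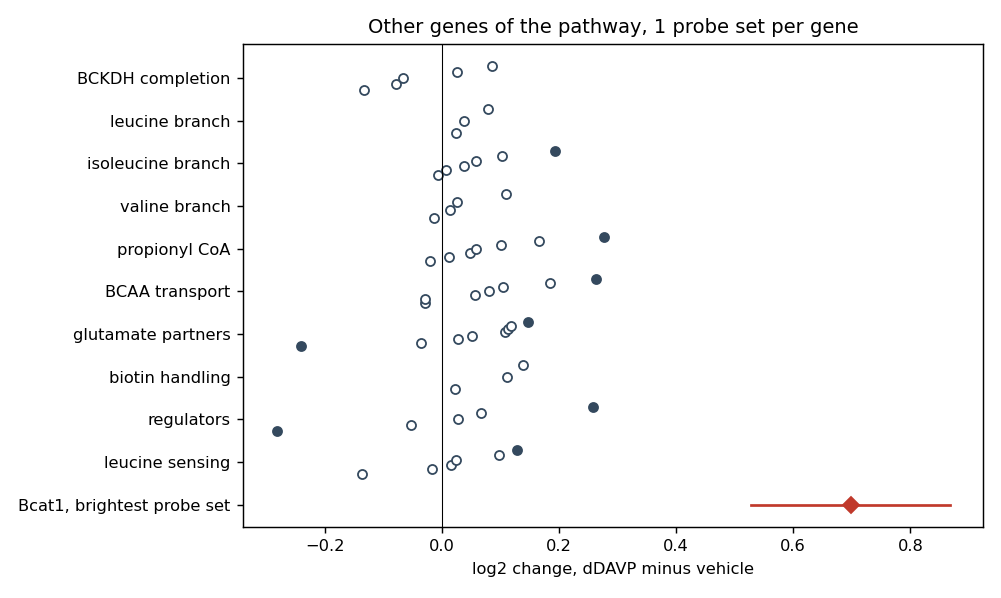
Log2 change with dDAVP (horizontal axis) of 54 other genes of the pathway in 10 lists, by the brightest probe set of each, with Bcat1 and its 95% interval in the last row. Filled points had an unadjusted p below 0.05 (8 genes), and all 54 lie between -0.28 and 0.28, against 0.70 for Bcat1.

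The genes whose signal followed that of Bcat1 most closely over the 6 arrays were named from 12363 others by Pearson r with its brightest probe set. They were Sprr1a (r = 0.996), Setdb2 (0.994), Sdcbp2 (0.993), Epor (0.993), Fxyd2 (0.991) and Clu (0.990). The points share the treatment, which separates them into the same groups, and 309 genes had r above 0.9. The size of the difference varied among the 6. Sprr1a, a small proline-rich protein of cornified epithelia, was 2.13-fold higher, Fxyd2, a sodium pump regulator, 1.54-fold, and Setdb2 1.11-fold. Of the other members, Mccc1 came closest (r = 0.851, rank 573), then Bckdhb (0.743, rank 1233), while Dbt and Bckdk were at -0.102 and -0.103. Between the brightest Bcat1 probe set and its other probe sets, r was 0.988 for 1430111_a_at and 0.874 for 1455699_at.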

How the data were processed

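Total RNA was measured on 6 arrays, 3 per treatment, grouped by the sample titles. The authors deposited log2 signals, 1 per probe set and array, for 28287 probe sets. Markers and pathway genes without a single-gene probe set among these were counted as not measured. All shares and the background level refer to the deposited probe sets, not to all those on the array. MAS5, RMA and Affymetrix Expression Console 1.1 are named in the submitters' processing notes, but not which of them produced the values. Ratios of dim probe sets may be compressed by such summaries. Precision is limited by the number of arrays.

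The 62 control probe sets were left out, and 28225 were tested in limma 3.58.1 under R 4.3.3 (lmFit, eBayes, no covariate) with Benjamini-Hochberg adjustment over all of them and a threshold of 0.05. The fit was also run on simulated data with independent normal noise drawn from its own variances. Such data hold no batches or shared samples, and no result is taken from them. Of these probe sets 23097 named 1 gene in the platform annotation, and 23026 matched a RefSeq gene by Entrez ID. A gene outside the 9 was represented by its brightest probe set. A genome build for the arrays was not given. Promoter sequences came from RefSeq.

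Named genes were the 9 members, Aqp2, called genes of the pathway lists, up to 3 genes per list with the smallest p, and the 6 genes most correlated with Bcat1. Pccb was given in addition, as the partner subunit of Pcca, and is not among the 30 named pathway genes followed under the alternatives. The members and lists were chosen with earlier results of these data known. Alternatives were quantile normalization, median centring, scaling to hybridisation or poly-A controls, 2 filters on dim probe sets, a robust or trended prior, a replicate block, omission of each array in turn, a threshold of 0.01, and averaging the probe sets of a gene. Figures were drawn with matplotlib 3.10.9.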

Additional observations from a re-analysis of the deposited data

How the results depend on the processing

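In 15 alternatives the brightest Bcat1 probe set differed by 0.64 (without vehicle replicate 1) to 0.85 (scaled to hybridisation controls), and by 0.64 to 0.75 without 1 array. The filters, priors and replicate block cannot alter this. The count of 61 called probe sets became 282 scaled to hybridisation controls, 95 above the median level, 146 with a trended prior, 24 with the replicate block, 23 at a threshold of 0.01, and 22 to 46 without 1 array. Of the 61, 86.9% were higher, and of the 282, 97.5%. The 2 called probe sets of the 9 genes became 3 scaled to hybridisation controls, above the median level and with a trended prior, where 1455699_at was called as well, 1 scaled to poly-A controls, 0 with the replicate block, 0 at 0.01, and 0 to 1 without 1 array. The calls of pathway list genes went from 0 to 1 scaled to hybridisation controls (Myc), above the median level (Slc3a2) and with a trended prior (Slc3a2), and stayed at 0 (lowest and highest) without any 1 array. Whether the replicate numbers pair the samples is not stated. Deviations of same-numbered arrays correlated at 0.196, 0.0463 and -0.0522, and vehicle replicates 2 and 3 correlated better with another number. So few arrays cannot settle whether same-numbered samples shared a passage or day.

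Of 205 values of the other 14 probe sets of the 9 genes, 14 moved by more than 1 SD, all under hybridisation scaling. Values under filters, priors and block could not move. Small differences still depended on single arrays: without 1 array, Bcat2 ranged from 0.04 to 0.18, Bckdha from -0.03 to 0.07, Bckdhb from 0.16 to 0.30, Dbt from -0.10 to 0.05, Bckdk from -0.02 to 0.02, the Ivd probe sets from 0.03 to 0.13, those of Mccc1 from -0.04 to 0.11 and those of Mccc2 from 0.01 to 0.19. Signs turned for 7 of the 30 named pathway genes, none of them called. The 2 control scalings shift every difference by 1 amount, and the cause of turns without 1 array was not tested. In the main fit Sesn1 was at -0.14 and Lipt2 at -0.13, and the others of the 7 lay between -0.08 and 0.06. Scaled to hybridisation controls, Ppm1k was at 0.070, Lipt2 at 0.014 and Sesn1 at 0.012. Scaled to poly-A controls, which takes 0.024 from every difference, Acad8 was at -0.0091 and Btd at -0.0019. Without 1 array, Lipt2 ranged from -0.22 to 0.011 (highest without dDAVP replicate 2), Oxct1 from -0.0081 (without vehicle replicate 2) to 0.085, Acaa2 from -0.0016 (without vehicle replicate 1) to 0.099, and Acad8 from -0.030 (without vehicle replicate 1) to 0.054, with -0.015 without dDAVP replicate 2. The probe sets of the 9 genes had means of 5.38 to 8.39, all above the olfactory receptor level of 3.56, and SEs of 0.058 to 0.096.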

Other observations

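Within the vehicle group the Bcat1 probe sets did not order the arrays alike. Vehicle replicate 3 was the highest of the 3 vehicle arrays on 1450871_a_at (7.87) and 1430111_a_at (6.78) and the lowest on 1455699_at (6.86). The SD over 3 arrays was 0.11 with vehicle and 0.04 with dDAVP on 1450871_a_at, 0.15 and 0.05 on 1455699_at, and 0.07 and 0.06 on 1430111_a_at.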
